A study of Arabidopsis with 6 samples.

Results

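PLATZ proteins are plant-specific transcription factors that bind zinc and A/T-rich DNA. The first described, from pea, represses transcription. In maize, the endosperm member Floury3 binds subunits of the RNA polymerase III machinery, which makes transfer RNA and 5S ribosomal RNA, and Arabidopsis members act in leaf growth, senescence, root meristem size and stress tolerance. The family is described here by 9 Arabidopsis loci, chosen by family membership, with AT5G46710 selected on its measured difference: it stood higher in apum23 and was already well expressed in wild type. The probe table names a single-gene probe set for 7 of the 9, 1 each, among 13286 loci with such a probe set. AT2G12646, known as RITF1 and induced by the root peptide RGF1, and AT2G27930 are not named in that table and are not analysed here.

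The study compared the aerial parts of wild-type (Col-3) Arabidopsis thaliana with those of the apum23 mutant in the Col-3 background, 3 samples of each. APUM23 is a nucleolar Pumilio-type RNA-binding protein needed for the processing of ribosomal RNA precursors. All plants grew on soil for 21 days at 22 °C with 8 h of light and 16 h of dark, and RNA was measured on Affymetrix ATH1 arrays. The series design gives the mutant as apum23-1, while the descriptions of apum23 replicates 2 and 3 read apum23-2 and apum23-3. The labels do not say whether these names mean alleles or replicates. The probe table names no probe set for APUM23, so its level did not check the genotype labels. The spiked-in hybridization controls averaged 5.36 (log2 intensity) on wild-type replicate 1 and 9.42 to 9.74 on each of the other 5 arrays. The tissue label was checked with 4 marker loci that the table names. PRK, a Calvin cycle gene of green cells, was bright at 12.71 ± 0.16 in wild type and 12.30 ± 0.28 in apum23 (log2 intensity, SD, n = 3). EXPA7 and EXPA18, of root hairs, had wild-type means of 3.67 and 3.97, near the arrays' lower quartiles of 3.41 to 3.84. As deposited PRK was not called, at -0.41 (limma adjusted p = 0.403). After quantile normalization it was separate between the genotypes and called lower in apum23, by -0.44 (limma adjusted p = 0.0172). On that scale 10% of all probe sets were called lower. The call was lost with wild-type replicate 1 also left out (-0.41, limma adjusted p = 0.0508). With arrays centred on their medians PRK was called lower, by -0.58 (limma adjusted p = 0.0159). Its part in the results below was not tested. PYK10, a beta-glucosidase gene of roots and seedlings, was bright, unlike EXPA7 and EXPA18. It was at 7.98 ± 0.13 in wild type, above the upper quartile of each wild-type array. In apum23 it was at 7.34, 8.05 and 8.69 (8.03 ± 0.68). The root markers thus did not all lie near background. The samples are bulk tissue, so a change in the share of a cell type and a change of RNA per cell cannot be told apart. No label says how many plants entered a sample, so p-values refer to the spread between these samples. In the limma fit as deposited that spread was pooled over all probe sets and is not each gene's own.

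AT5G46710 was the only measured member whose groups did not overlap as deposited, beside 14.2% of all probe sets. Its log2 intensities on wild-type replicates 1 to 3 were 6.52, 7.03 and 7.46. On apum23 replicates 1 to 3 they were 9.62, 9.90 and 9.99. Every apum23 array lay above every wild-type array, and the closest pair of arrays was still more than 2 log2 units apart. The means were 7.00 ± 0.47 in wild type and 9.84 ± 0.20 in apum23 (SD, n = 3). The difference of 2.84 on the log2 scale (limma standard error 0.22) corresponds to a 7.14-fold higher intensity in apum23. The gene was listed for this difference, so it is given as a description, without a test.

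**Figure D1:**
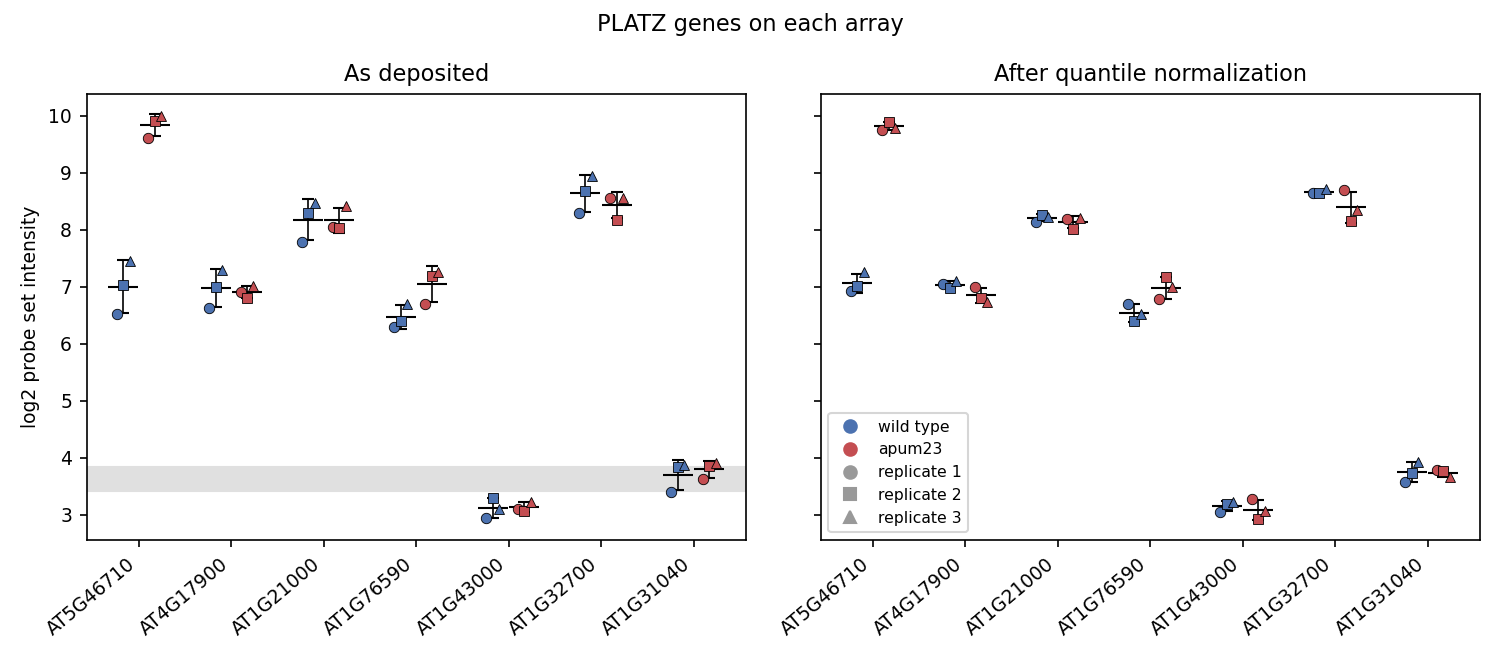
Log2 probe set intensity (vertical axis) of the 7 measured PLATZ genes on each array, as deposited (left) and after quantile normalization (right). Points are single arrays, with colour for genotype and shape for replicate; horizontal bars and whiskers are the mean and SD of 3 arrays, and the grey band spans the lower quartiles of the 6 arrays (3.41 to 3.84). AT5G46710 stands clear between the genotypes in both panels, as deposited at 9.62 to 9.99 against 6.52 to 7.46, and AT1G76590 is separate by a small gap in the right panel, at 6.79 to 7.17 against 6.39 to 6.70.

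The wild-type level of AT5G46710 was moderate rather than among the brightest. On the wild-type arrays it was brighter than 66.0% to 71.2% of all 22746 probe sets tested. Its signal there lay above the array medians of 5.34 to 5.94 and, on each array, below the upper quartiles of 7.13, 7.53 and 7.72. On the apum23 arrays it was brighter than 94.7% to 95.2% of probe sets. Probe sets differ in how strongly they bind their target, so these shares place the signal against background and do not rank transcripts by abundance. The other 11 of the 12 loci with the largest differences towards apum23 had wild-type means of 2.91 to 5.38. Of the loci with a named probe set, 216 were higher in apum23 by 1 or more on the log2 scale. Apart from AT5G46710, 43 of these were at least as bright in wild type, and 0 of them was raised as much. AT5G46710 was listed for a rise from an already high wild-type level, so this place restates the choice. Over all 22746 probe sets its difference ranked 19 from the top, and probe sets without a named locus were not compared for brightness.

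**Figure D2:**
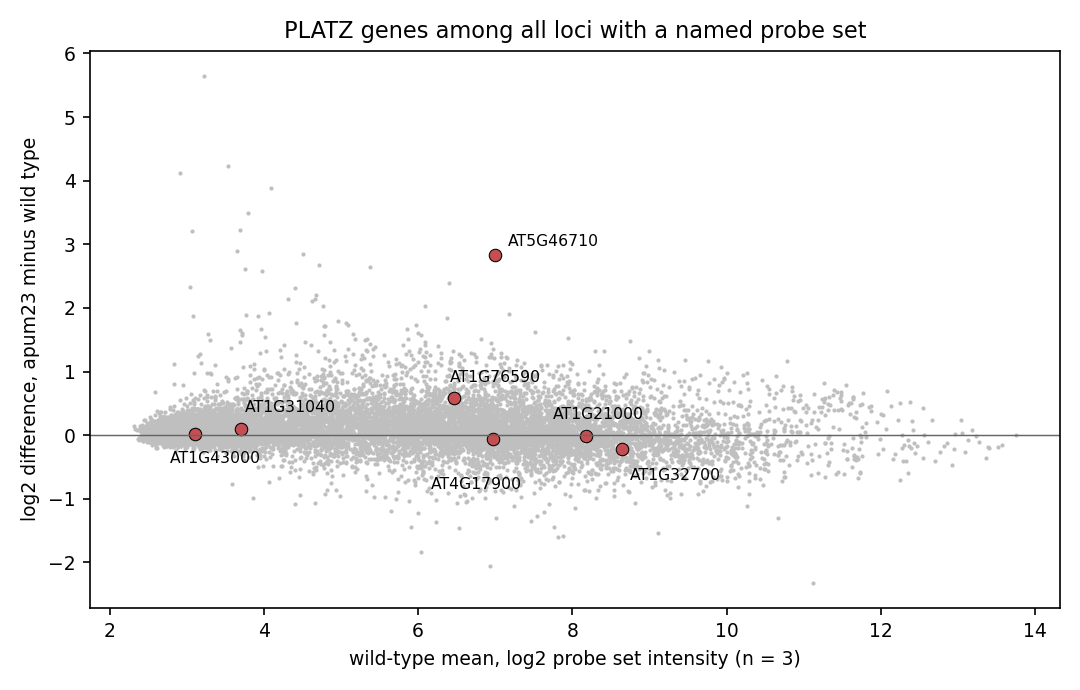
Difference between apum23 and wild type (vertical axis, log2) against the wild-type mean (horizontal axis, log2 probe set intensity, n = 3) for all 13286 loci with a named probe set. Grey points are single loci and red points the 7 PLATZ genes. AT5G46710, at 7.00 and 2.84, stands to the right of every other locus raised by 2 or more, and the other 6 PLATZ genes lie inside the grey cloud.

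Part of the spread among the wild-type arrays of AT5G46710 followed the brightness of whole arrays. After subtraction of each array's median its wild-type values were 1.18, 1.26 and 1.52. Its apum23 values were 3.91, 4.15 and 3.90. The wild-type SD was then 0.18 in place of 0.47, and the difference between the means was 2.67. After quantile normalization, which gives all arrays the same distribution, the difference was 2.75.

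The other 6 measured PLATZ genes did not pass the test. Calls were made with limma at an adjusted p under 0.05 over all 22746 probe sets, of which 6.69% were called, 5.31% as higher and 1.38% as lower in apum23. Without wild-type replicate 1 the balance turned, from 1208 higher and 314 lower to 779 and 851. In this fit the standard error of a log2 difference was 0.22 for every probe set, because limma pooled the spread over all of them. Of the 7 members, 1 was called higher, AT5G46710 itself, and 0 lower. Nothing is read from that count, since AT5G46710 was listed for its difference in this contrast. The median log2 difference of the 6 others was 0.0038, beside 0.08 for all loci with a named probe set.

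AT1G76590 had the next largest difference. Its log2 intensities were 6.30, 6.41 and 6.70 on wild-type replicates 1 to 3. They were 6.69, 7.18 and 7.26 on apum23 replicates 1 to 3. Only apum23 replicate 1 and wild-type replicate 3 overlapped, and by a narrow margin. The means were 6.47 ± 0.21 and 7.05 ± 0.31 (SD, n = 3), a log2 difference of 0.58 with a limma adjusted p of 0.113. Once the arrays were quantile-normalized, the groups were separate and the gene was called, at a log2 difference of 0.45 with a limma adjusted p of 0.0256. On that scale 19.7% of all probe sets were called, 9.69% as higher. As deposited, the groups did not overlap in 14.2% of probe sets. It was also called with the replicate number as a block (limma adjusted p = 0.0218) and without wild-type replicate 3, at 0.69 (limma adjusted p = 0.0499). In those 2 settings 1949 and 1699 of the 22746 probe sets were called higher. With arrays centred on their medians AT1G76590 was not called, at 0.41 (limma adjusted p = 0.112). The call thus depended on how the arrays were scaled, on the block and on 1 array.

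AT1G21000 and AT4G17900 were well above background in both genotypes and had differences close to 0. AT1G21000 had log2 intensities of 7.78, 8.29 and 8.47 on the wild-type arrays and 8.05, 8.03 and 8.42 on the apum23 arrays. Its difference was -0.01, with a 95% interval of -0.45 to 0.43. AT4G17900 had 6.63, 6.99 and 7.30 on the wild-type arrays and 6.91, 6.79 and 7.02 on the apum23 arrays. In both genes the apum23 arrays lay within the range of the wild-type arrays. The difference of AT4G17900 was -0.06 with a 95% interval of -0.50 to 0.38 and a limma adjusted p of 0.993. The smallest absolute log2 difference called anywhere on the array was 0.66, so smaller changes were not detectable as deposited, and the missed threshold does not show that the genotypes were alike.

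AT1G32700 was also well above background, with 8.30, 8.68 and 8.95 on the wild-type arrays. The apum23 arrays were at 8.56, 8.16 and 8.55, and the groups overlapped. The difference was -0.22, with a 95% interval of -0.66 to 0.22 and a limma adjusted p of 0.844. After quantile normalization the wild-type arrays lay close together, at 8.65, 8.64 and 8.71. The apum23 arrays were then spread from 8.16 to 8.69, and the difference of -0.27 had a limma adjusted p of 0.186.

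AT1G43000 and AT1G31040 were dim. AT1G43000 ranged from 2.94 to 3.29 in wild type and from 3.07 to 3.23 in apum23, below the lower quartiles of the arrays. Its difference of 0.02 therefore says little about the transcript. AT1G31040, known as ORE15, a gene that promotes leaf growth and delays leaf senescence, was at 3.40, 3.83 and 3.87 in wild type. In apum23 it was at 3.63, 3.86 and 3.91, so the groups overlapped near the lower quartiles. Its difference was 0.10 with a limma adjusted p of 0.977.

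**Figure D3:**
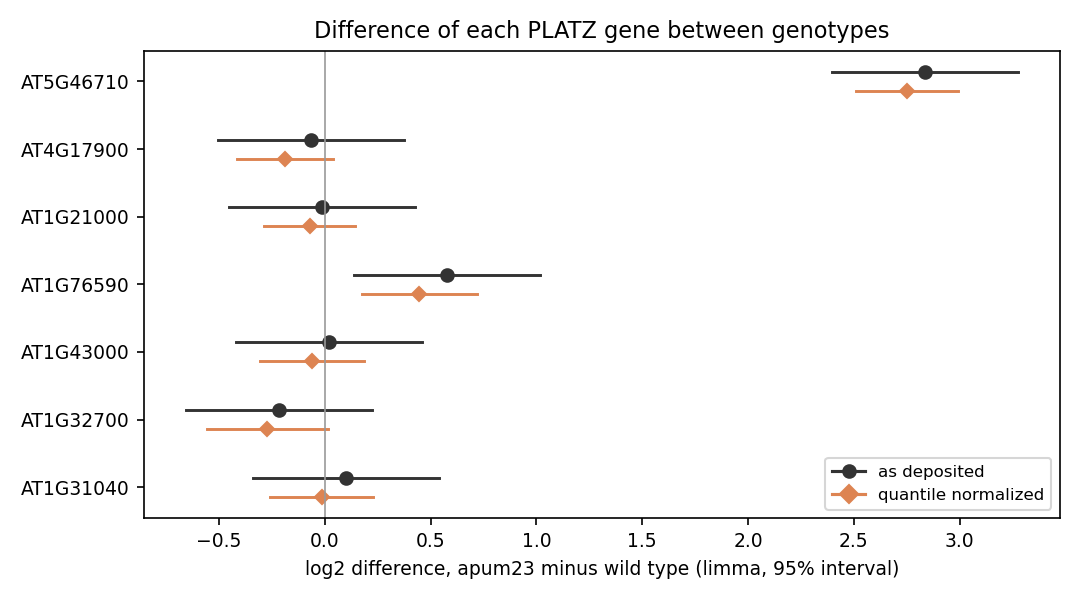
Log2 difference between apum23 and wild type (horizontal axis) for each measured PLATZ gene, with limma's 95% interval, as deposited (circles) and after quantile normalization (diamonds). AT5G46710 lies at 2.84 and 2.75, AT1G76590 at 0.58 and 0.45, and the intervals of the other 5 genes include 0 on both scales.

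Differences between members on the same array are free of any shift that all probe sets of the array share, though not of a shift that differs between bright and dim probe sets. The distance from lower quartile to median was not the same on all arrays, and AT5G46710 minus the dim AT1G43000 was 3.58, 3.74 and 4.35 on wild-type replicates 1 to 3. Measured so, AT5G46710 was higher in apum23 relative to each of the 6 other members by 2.26 (against AT1G76590) to 3.05 (against AT1G32700) on the log2 scale. The gap between the nearest wild-type and apum23 arrays was at least 1.97 in each of these 6 comparisons, which are descriptions for the reason given above. Among the 6 others, 15 pairs were compared with a two-sided exact permutation test, whose smallest possible p with 3 arrays against 3 is 0.1. In 5 pairs p was 0.1, and 4 of these held AT1G76590. Relative to AT4G17900, AT1G76590 was higher in apum23 by 0.64, since the difference AT4G17900 minus AT1G76590 went from 0.50 ± 0.14 to -0.14 ± 0.32 (SD, n = 3, exact permutation p = 0.1, adjusted over the 15 pairs 0.3). Relative to AT1G32700 it was higher by 0.79 and relative to AT1G31040 by 0.48, with the same exact permutation p. This design cannot give a smaller p for such a value.

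The measured chromosomal neighbours of AT5G46710 did not share its difference. Of the 5 protein-coding loci on either side, 6 have a named probe set, and 0 was called, beside 6.69% of all probe sets. The loci directly next to it, AT5G46700 and AT5G46720, have no named probe set and are not covered. The log2 differences of the 6 measured neighbours ran from -0.02 (AT5G46660) to 0.42 (AT5G46730). For AT1G76590, 6 of the 10 neighbours are measured, and 1 was called higher, beside 5.31% of all probe sets. This was AT1G76600, the next locus along the chromosome, with a log2 difference of 0.70. AT1G76580, the locus on the other side, was at 0.49 and was called higher after quantile normalization, at 0.34. AT1G76550, a further neighbour, was at -0.24 and was called lower after quantile normalization, at -0.34. These neighbours were named after their values were seen. Of the 27 measured neighbours of the other 5 members, 1 was called, AT1G21065 near AT1G21000, at -0.72, beside 6.69% of all probe sets. After quantile normalization 5 of the 27 were called lower and 0 higher, beside 10% of all probe sets called lower and 9.69% higher.

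The loci whose 6 array values most resembled those of AT5G46710 were found by centring each locus on its own mean and taking the root mean square difference between profiles over the 6 arrays. The nearest was AT2G18720, of a translation initiation factor family, at a root mean square difference of 0.17 log2 units. It went from 3.46, 3.63 and 3.86 in wild type to 6.35, 6.48 and 6.81 in apum23. Next was AT2G21640, known to be induced by oxidative stress, at 0.22, with wild-type values of 5.27, 5.36 and 5.51 and apum23 values of 7.76, 8.12 and 8.21. The remaining 3 of the 5 nearest were AT1G07050, with a CCT motif (0.24), AT2G40010, of the ribosomal P0 stalk protein family (0.25), and the protein kinase gene AT5G11410 (0.26). Differences between the genotypes dominate this measure, so it picks out loci with a rise of the same size, from 2.40 for AT2G40010 to 3.21 for AT5G11410. Replicate 3 was the brightest array of either genotype in all 5, as it was over all probe sets. After quantile normalization these 5 ranked 1, 3, 8, 7 and 4 in likeness.

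**Figure D4:**
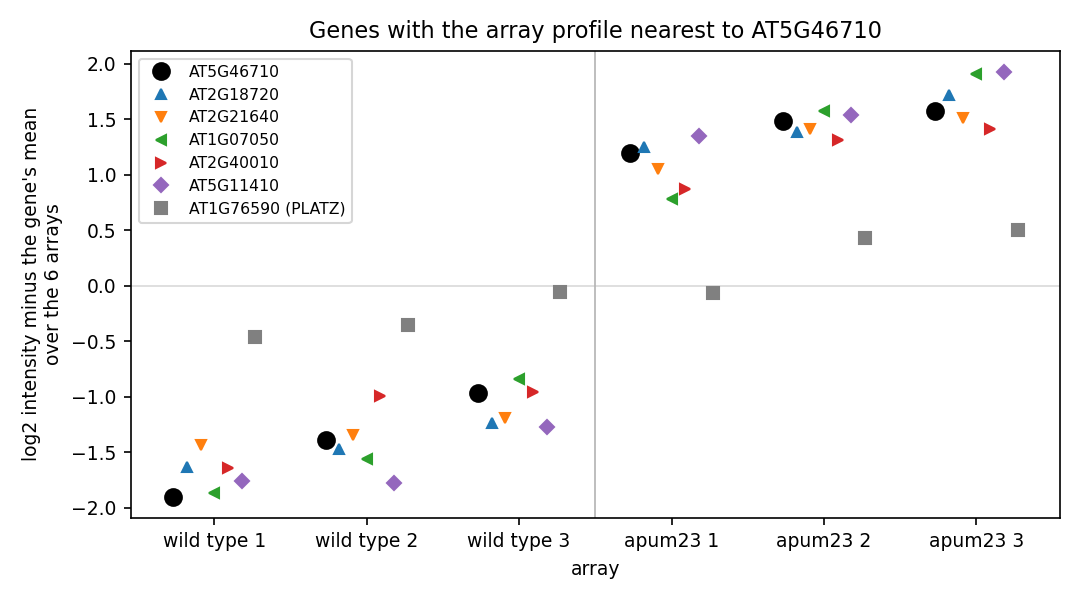
Log2 intensity minus each gene's own mean over the 6 arrays (vertical axis) by array (horizontal axis), for AT5G46710, the 5 loci with the nearest profile and AT1G76590. Each point is 1 array, and the vertical line parts the genotypes. The 5 loci follow AT5G46710 on all arrays, while the PLATZ gene AT1G76590 spans a much smaller range.

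Genes that act with PLATZ proteins elsewhere were described from lists. These lists were chosen with earlier results of these data known, so their counts and medians are descriptions. For RNA polymerase III, the partner of maize Floury3, 7 subunit genes and 1 homolog of the repressor MAF1 were listed and 6 of the 8 measured. Of these 6, 3 subunit genes were called higher, the MAF1 homolog was called lower and 2 subunit genes were not called, beside 5.31% of all probe sets called higher and 1.38% lower. The median log2 difference of the 6 was 0.66, against 0.08 for all loci with a named probe set. NRPC1 and NRPC2, for its largest subunits, rose by 0.77 and 0.71 (limma adjusted p = 0.0142 and 0.0273). The as-deposited p-values of this list rest on the standard error pooled over all probe sets. AT5G09380, of the RPC53 subunit family, had wild-type values of 4.57, 4.84 and 5.15 and apum23 values of 6.04, 6.38 and 6.55, a rise of 1.47 (limma adjusted p = 1.19e-08). AT5G13240, the homolog of MAF1, which in yeast and human cells represses RNA polymerase III, went from 7.39, 7.81 and 7.78 to 6.77, 7.08 and 7.05. Its groups did not overlap, and it fell by 0.69 (limma adjusted p = 0.0355). With 1 array left out, the number called higher was 1 to 4 and the number called lower 0 to 1. The counts were 1 and 1 without wild-type replicate 1, 1 and 0 with any of wild-type replicate 2, apum23 replicate 1 and apum23 replicate 3 left out, 4 and 0 with wild-type replicate 3 left out, and 2 and 0 with apum23 replicate 2 left out. The call of AT5G13240 was also lost without the dimmest 40% of probe sets (limma adjusted p = 0.0519). With a trend in the variance model AT5G09380 alone of the 4 stayed called. NRPC1, NRPC2 and AT5G13240 were then not called (limma adjusted p = 0.0669, 0.112 and 0.117). With apum23 replicate 1 alone as mutant, the log2 differences of AT5G09380, NRPC1, NRPC2 and AT5G13240 were 1.18, 0.66, 0.51 and -0.89. The spread there rests on the wild-type arrays, so no call of these genes is claimed for that setting. Quantile normalization and the replicate block each gave 4 higher and 1 lower. The added call was the subunit gene AT5G23710 (limma adjusted p = 0.0111 and 0.0387). Over all probe sets, 9.69% were called higher and 10% lower after quantile normalization. Under the block 1949 of all 22746 were called higher and 655 lower.

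Of 9 listed senescence genes 2 were measured and 1 was called, beside 6.69% of all probe sets. WRKY53, a transcription factor gene of senescence and defence, rose from 4.47, 4.83 and 5.90 to 6.62, 7.00 and 6.85 (1.76, limma adjusted p = 1.71e-12). That p rests on the standard error pooled over all probe sets, while the SD of this gene in wild type was 0.74. After quantile normalization, where the standard error differed between probe sets, its difference was 1.62 (limma adjusted p = 3.67e-04). EIN3, of ethylene signalling, was at 9.18 ± 0.28 and 9.11 ± 0.19 (SD, n = 3) and was not called. Of 7 listed genes of RGF1 signalling, the root pathway of RITF1, 4 were measured, with wild-type means of 3.18 to 4.94. Of these 4, 0 was called, beside 6.69% of all probe sets, and nothing is read from that count. The largest differences there were -0.28 for AT4G26540 and 0.20 for AT5G48940, both of the RGF1 receptor kinase group. After quantile normalization AT4G26540 was called lower (-0.44, limma adjusted p = 0.0173). The lists for GRF and GIF leaf growth regulators, the SOS salt pathway, seed maturation and 3 further PLATZ loci had no named probe set and are not analysed here.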

How the data were processed

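For each of 6 ATH1 arrays the authors deposited log2 intensities per probe set. RMA and limma are named, without versions, in the submitters' processing notes. No further scaling was applied before the main comparison. Array medians ran from 5.34 to 6.10, so no quantile step across these arrays is in the values. Without the 64 controls, 22746 probe sets entered the test. Of 13513 probe sets with 1 gene in the platform annotation, 13436 matched the RefSeq gene table (TAIR10.1), and the brightest stood for a locus. Probe sets with several genes (503) named no locus, and no build is named for the files, so the table served for names and neighbours only. Family and pathway roles of loci are background knowledge.

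The genotype comparison used lmFit and eBayes of limma 3.58.1 (R 4.3.3; no block, two-sided) with Benjamini-Hochberg adjustment. Quantile normalization, median centring, the replicate block, filters, other variance models and left-out arrays were tried as alternatives. Named loci were the listed members, called members and the largest 2 differences of each list, and the 5 nearest profiles. Members and lists were chosen with earlier results of these data known. The within-array comparison planned for the members with the most alike proteins was made over 15 pairs instead, since no protein table was used here, and neighbours were added after seeing the data. The number of arrays and the differences in brightness between them limit the precision.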

Additional observations from a re-analysis of the deposited data

How the results depend on the processing

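AT5G46710 was higher in apum23 in all 16 alternatives run, at 2.59 to 3.06 with 1 array left out. Since its groups do not overlap, leaving arrays out could not turn its direction. Settings that changed only the model, the probe sets tested or the cutoff left the difference at 2.84 and could not turn it either. The gene was listed for this difference, so these settings are a description. Against 1 PLATZ gene called higher, 2 were called after quantile normalization, also with wild-type replicate 1 left out (chosen after seeing the data), under the replicate block and without wild-type replicate 3 (1 to 2 with 1 array left out). The second was AT1G76590 each time, with limma adjusted p of 0.0256, 0.0202, 0.0218 and 0.0499, and it was not called in the other 12 alternatives. None of the other 5 PLATZ genes was called in any setting that covered it. Same-numbered arrays deviated together with correlations of -0.29, 0.11 and 0.16, and 2 of 6 arrays correlated best with their own number, so the replicate block rests on the number alone.

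Against 1522 probe sets called, the count was 4481 after quantile normalization, 3717 in the same setting minus wild-type replicate 1, 2997 with arrays centred on their medians and 2604 under the replicate block. It was 253 with apum23 replicate 1 alone as mutant, where the spread rests on the wild-type arrays, 886 with only single-gene probe sets, where fewer were tested, 452 at an absolute log2 difference of 1 or more and 852 to 1842 with 1 array left out. Calls were 79.4% higher as deposited, 49.2% after quantile normalization and 39.9% after median centring, and the median log2 difference of all probe sets was 0.08, -0.02 and -0.09. The cause was not tested.

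Differences near 0 changed sign. AT1G43000 was at -0.062 after quantile normalization, -0.15 after centring, -0.012 with apum23 replicate 1 alone, -0.12 under quantile normalization minus wild-type replicate 1, and -0.068 to 0.11 with 1 array left out. AT1G31040 was at -0.014, -0.071, -0.075 and -0.10 in those 4 settings and at -0.052 to 0.19 with 1 array left out. With 1 array left out AT4G17900 was at -0.23 to 0.098, AT1G21000 at -0.21 to 0.13, AT3G24240 at -0.19 to 0.14, UPB1 (AT2G47270) at -0.14 to 0.11, EIN3 (AT3G20770) at -0.21 to 0.078, EXPA7 (AT1G12560) at -0.10 to 0.14 and PYK10 (AT3G09260) at -0.29 to 0.39. EXPA7 was at -0.12, -0.16, -0.24 and -0.061 in the same 4 settings, PYK10 at -0.028, -0.13 and -0.64 in the first 3, and AT5G48940 at -0.063 with apum23 replicate 1 alone.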
